A study of Mus musculus with 14 samples.

Results

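The genes described here encode the extracellular arm of Wnt signalling: 13 Wnt ligands, *Porcn*, 10 Frizzled receptors, the co-receptors *Lrp5* and *Lrp6*, 3 R-spondins, 3 secreted proteins that bind Wnt (*Sfrp1*, *Sfrp2* and *Frzb*) and 3 Dickkopf (Dkk) proteins. They were taken by name from the genes that the comparison tables list, as every Wnt, Fzd, Sfrp, Dkk or Rspo gene with a number, together with *Lrp5*, *Lrp6*, *Porcn* and *Frzb*. *Sfrp4* was left out, and *Wif1* is in neither table. This gave 35 of the 20139 genes that appear in either table, of which 29 are in both, 1 in the spleen table only (*Wnt10a*) and 5 in the ovary table only (*Dkk1*, *Fzd10*, *Rspo2*, *Wnt7b* and *Wnt8a*).

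The libraries were made from poly(A) RNA of mice lacking ZFP36L2, a zinc finger protein that binds AU-rich elements (AREs) in 3′UTRs and promotes decay of the bound mRNA, and of wild-type mice. The knockout animals (L2-fKO, named L2-cKO in the labels; Zfp36l2-/-;CMV-Cre) carried *Zfp36l2* alleles from which Cre had removed exon 2, flanked by loxP sites in the conditional allele. The wild-type littermate controls carried both intact copies together with the same CMV-Cre transgene, which is expressed broadly, so the deletion was not limited to 1 cell type. Spleens came from 4 wild-type animals (2 female, 2 male) and 4 L2-fKO animals (1 female, 3 male), and ovaries from 3 wild-type and 3 L2-fKO females. L2-fKO spleen 3, the only female spleen of its group, and L2-fKO ovary 1 came from the same animal. The paper describes the animals as age-matched, and those of the spleens as 4 age-matched pairs of pups in their first days after birth. It does not say which animals were paired. The labels give no age, and L2-fKO pups are stated to die early in life. The labels call the spleen source a spleen organoid, whereas the methods describe dissected tissue.

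Wnt proteins are lipid-modified by Porcupine (*Porcn*), secreted, and bound at the cell surface by a Frizzled protein and, for the β-catenin branch, LRP5 or LRP6. Secreted Frizzled-related proteins (SFRP1, SFRP2 and FRZB) hold a domain like that of the Frizzled receptors and bind Wnt outside the cell, DKK1 and DKK2 bind LRP5 and LRP6, and R-spondins raise the amount of Frizzled at the surface by way of LGR receptors. In the spleen, stromal cells are a known source of such secreted factors, and in the ovary WNT4 and RSPO1 are known for their part in the female fate of the gonad.

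The paper's gel-shift assays gave the 7-mer UAUUUAU as the apparent minimum for ZFP36L2 binding. Sites of this 7-mer are shown because each of 6 members that were higher in L2-fKO spleen holds at least 1 in its longest 3′UTR. The windows are of 27 nt on the sense strand of GRCm38 (GENCODE release M21), written as RNA with the 7-mer in capitals.

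*Fzd1* (chr5:4753911-4753937, minus strand): agaucaucuaUAUUUAUagaggaauag
*Fzd4* site 1 (chr7:89409632-89409658, plus strand): uggccuggagUAUUUAUaugaugccua
*Fzd4* site 2 (chr7:89409978-89410004, plus strand): caacuucaguUAUUUAUugauucaugc
*Fzd5* (chr1:64730642-64730668, minus strand): ggagauuaguUAUUUAUgaaaaacaaa
*Lrp6* site 1 (chr6:134450605-134450631, minus strand): aagaaaagaaUAUUUAUauauuuucuu
*Lrp6* site 2 (chr6:134446667-134446693, minus strand): ugcaaggaugUAUUUAUauuauaaugg
*Rspo3* (chr10:29452912-29452938, minus strand): ugcuaggagaUAUUUAUuguuuuucuu
*Wnt4* (chr4:137296900-137296926, plus strand): guccucaaguUAUUUAUugccaaaaaa

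The 7-mer was not particular to these members. It was present in 17 of the 30 members tested in the spleen (56.7%) and in 4212 of the 14192 tested genes with a 3′UTR (29.7%). The members' 3′UTRs were longer, with a median of 1788 nt against 1161 nt, and the share of genes holding the 7-mer went from 12.5% below 1000 nt to 67.9% above 4000 nt. Of the 9 members with a higher level and an adjusted p below 0.05 in L2-fKO spleen, 6 held it, and of the 20 tested members with an adjusted p of 0.05 or more, 11 held it. These groups also differed in length, with a median 3′UTR of 2947 nt in the 9 and 1732 nt in the 20. *Sfrp1*, *Frzb* and *Lrp5* were among the 9 and held none, although the 3′UTR of *Sfrp1* measured 3144 nt. *Wnt5a* held 4 sites, the highest number among the members. A match is a run of letters and says nothing of binding.

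**Figure D1:**
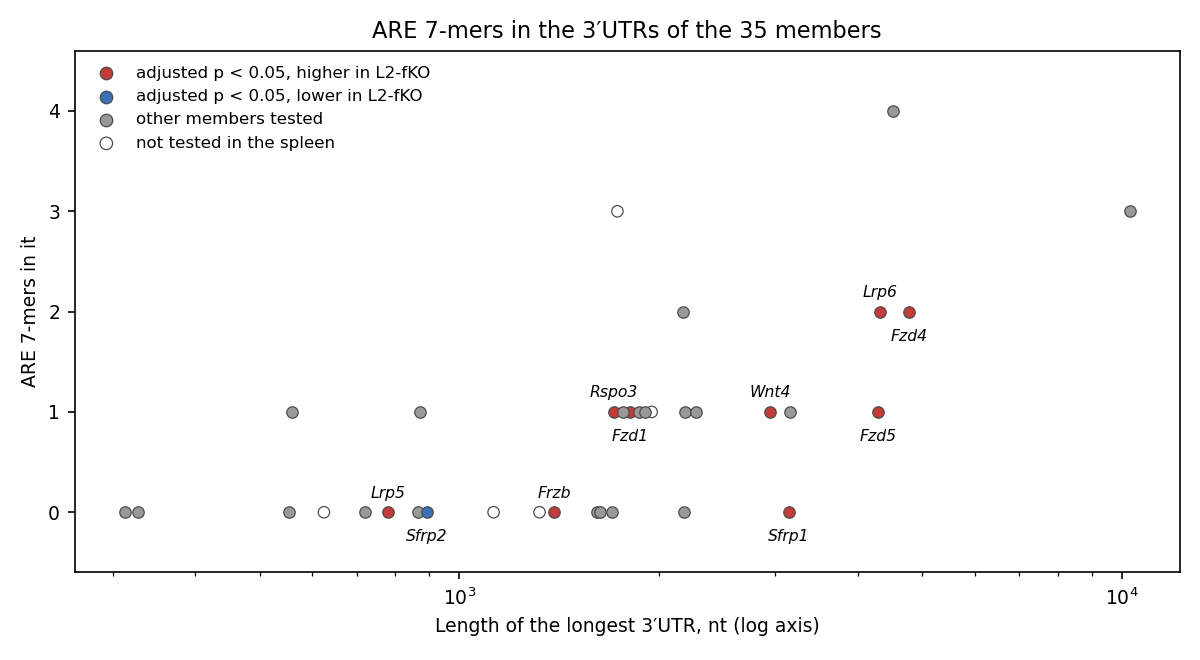
Number of ARE 7-mers in the longest 3′UTR of each of the 35 members against the length of that 3′UTR (nt, log axis). Filled colours mark the 10 members with an adjusted p below 0.05 in the spleen, and they lie between 0 and 2 sites over 3′UTRs of 780 to 4774 nt.

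Total reads counted per library were 39138010 to 45167464 in the spleen and, from the recovered reads, 31052510 to 44270070 in the ovary. *Zfp36l2* had normalized counts of 7394, 4773, 6429 and 4362 in the wild-type spleens and 277.7, 325.7, 348.7 and 405 in the L2-fKO spleens. In the ovaries it had 4868, 4906 and 4745 in wild type and 758.3, 1011 and 1009 in L2-fKO, so every library matched its label, with reads left in the knockout libraries. Markers of other cell types moved with genotype in the spleen. All 6 megakaryocyte and platelet markers were lower in L2-fKO, and their summed level was 21276 to 43625 in wild type and 1120.4 to 1371 in L2-fKO. Pancreatic acinar markers summed to 21275, 6966, 1639 and 18895 in wild-type spleens 1 to 4 and to 1253 to 2174 in the L2-fKO spleens.

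In wild-type spleen the members with the highest levels per exon length were *Fzd1* and *Sfrp1*. *Fzd1* had 14.9 ± 1.3 RPKM (SD, n = 4), reads per kb of exon scaled to the library total, and *Sfrp1* had 11.9 ± 3.76, and their ranges overlapped. *Frzb* (4.81 ± 0.979), *Lrp5* (4.46 ± 0.607) and *Lrp6* (3.6 ± 0.633) came next and did not differ beyond their spread. The ligands were much lower. *Wnt5a* led them with 1.74 ± 0.148, followed by *Wnt6* with 1.29 ± 0.136, and all others were below 1. Summed over each role on the same scale, the Frizzled receptors stood at 23.8 to 28.1 in wild type and 36.7 to 52.1 in L2-fKO, and the secreted Wnt-binding antagonists at 13.6 to 23.5 and 37 to 67.4. The summed ligands overlapped, at 5.14 to 6.65 in wild type and 4.42 to 6.93 in L2-fKO. The sums rest on few genes, as *Fzd1* supplied 53.7% to 62.9% of the Frizzled sum and *Sfrp1* 61% to 78.1% of the antagonist sum in every spleen.

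**Figure D2:**
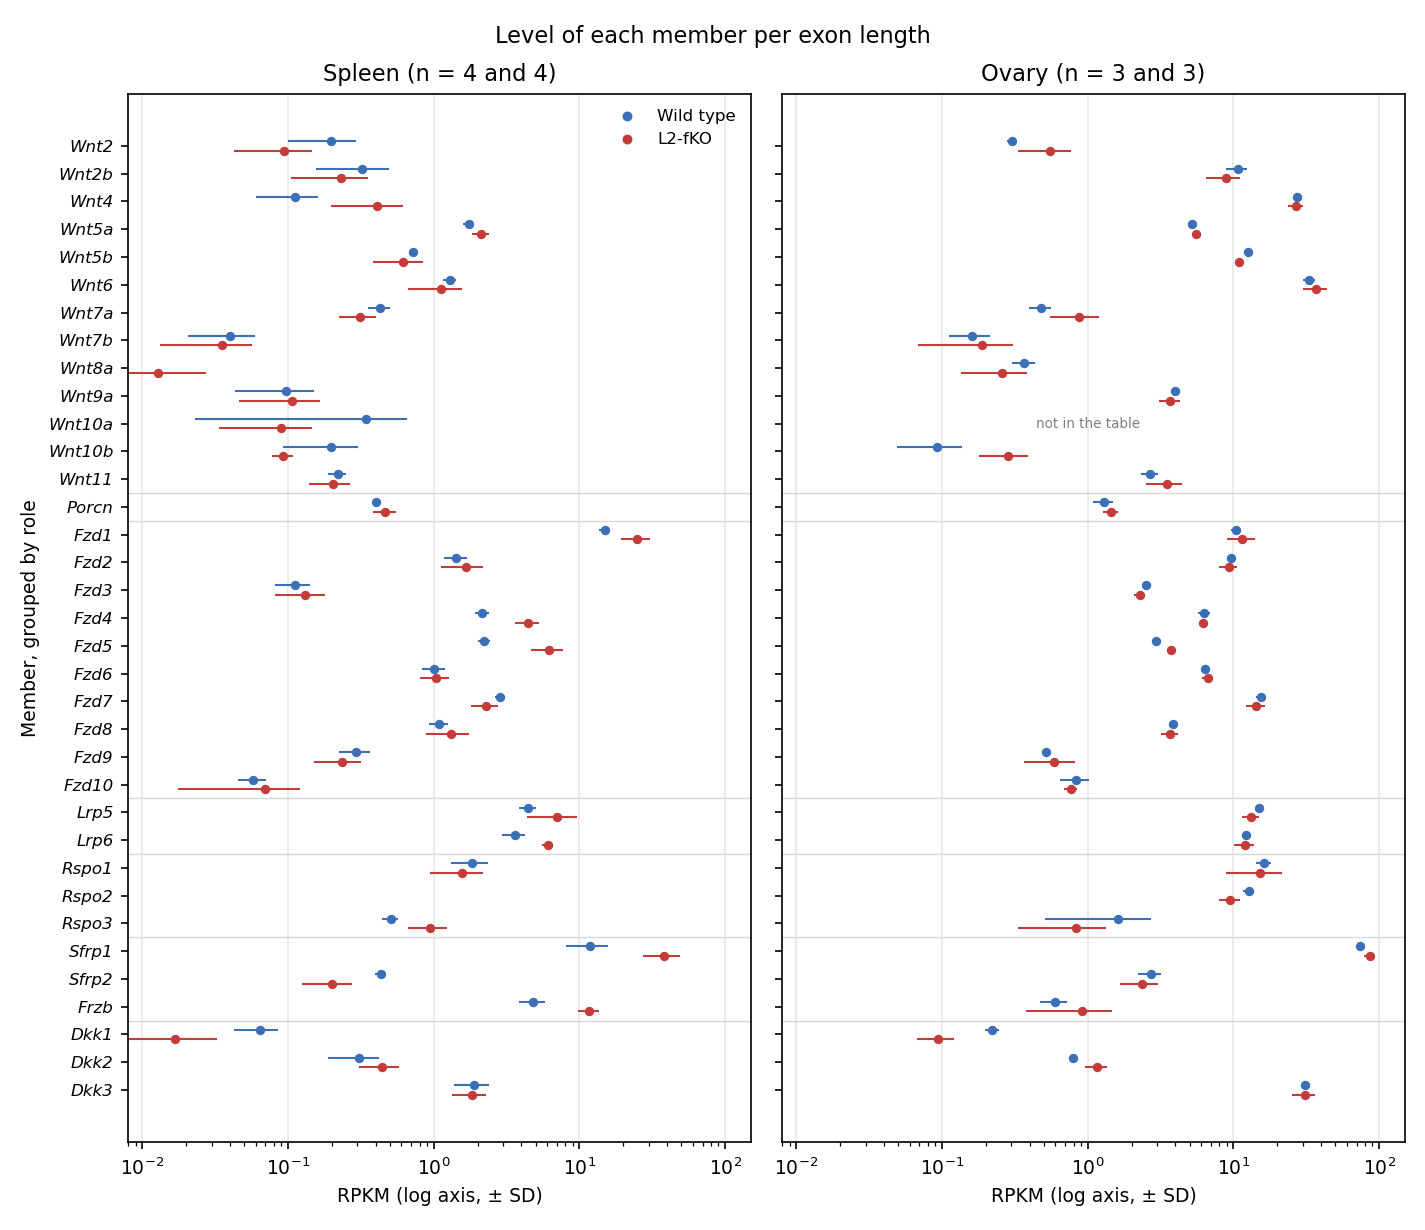
Mean level of each member per exon length in spleen (n = 4 and 4) and ovary (n = 3 and 3), in RPKM on a log axis, with bars of ± SD cut at the left edge. Values below 0.01 are not drawn (*Rspo2* and wild-type *Wnt8a* in the spleen). In the spleen *Fzd1* and *Sfrp1* lie farthest right, and in the ovary *Sfrp1* at 73.7 in wild type.

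The first comparison asks which members differ between L2-fKO and wild-type spleen. The antagonists *Sfrp1* and *Frzb*, 3 of the 9 Frizzled receptors tested (*Fzd1*, *Fzd4* and *Fzd5*), *Lrp5*, *Lrp6*, *Rspo3* and *Wnt4* were higher in L2-fKO at an adjusted p below 0.05, and *Sfrp2* was lower. By edgeR the other 10 of the 11 ligands tested did not pass. The test was edgeR's quasi-likelihood fit over 16911 genes, and p-values were adjusted by Benjamini-Hochberg over all of them. A call required an adjusted p under 0.05 together with a log2 fold change beyond 1 in either direction. Of the 30 members that passed the filter on low counts, 5 were called higher (*Sfrp1*, *Frzb*, *Fzd4*, *Fzd5* and *Wnt4*) and 1 lower (*Sfrp2*), which is 16.7% and 3.33%. Of all genes tested, 2.9% were called higher and 3.11% lower. On adjusted p alone 9 members were higher and 1 lower, against 6.89% and 6.51% of all genes. Every L2-fKO library lay above every wild-type library for 10 of the 30 and below for 2, against 9.61% and 10.8% of all genes. The median log2 fold change was 0.16 over these 30 members and -0.02 over all genes tested. The 5 members left out by the filter had at most 19 reads in any spleen. In bulk tissue, a change in the number of cells that express a gene and a change in RNA per cell cannot be told apart.

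**Figure D3:**
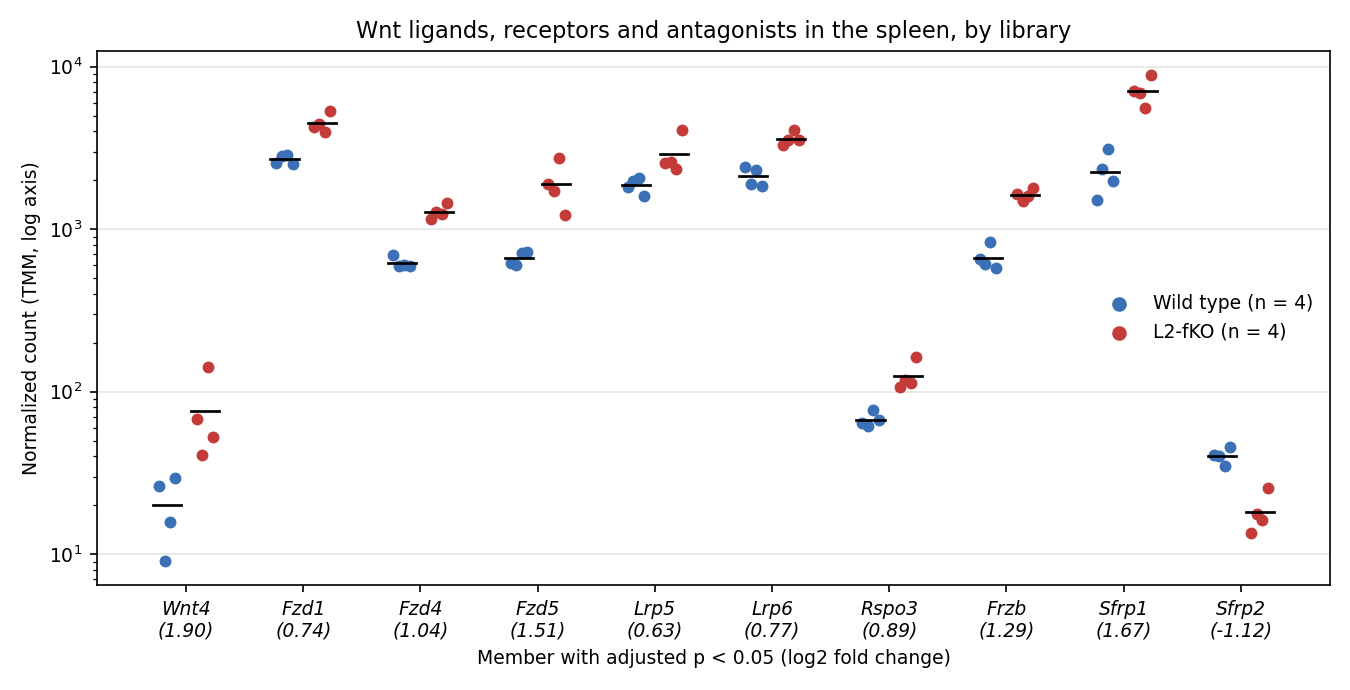
Normalized count (TMM, log axis) in each of the 8 spleen libraries for the 10 members with an adjusted p below 0.05, with the log2 fold change under each name. Points are libraries and bars are group means. The 4 L2-fKO libraries lie above the 4 wild-type libraries for 9 members and below them for *Sfrp2*.

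Among the secreted Wnt-binding antagonists, *Sfrp1* had the highest counts. Its normalized counts were 1516, 2342, 3094 and 1978 in wild type and 7036, 6902, 5563 and 8869 in L2-fKO. The groups did not overlap, and the lowest L2-fKO library was well above the highest wild-type library. The log2 fold change was 1.67 ± 0.22 (SE), which is 3.18-fold, with an edgeR adjusted p of 0.00139, and it stayed between 1.52 and 1.87 when any 1 library was left out. *Frzb*, which encodes SFRP3, had 657.3, 608.1, 831.9 and 579.1 in wild type and 1648, 1489.8, 1593 and 1801 in L2-fKO. It was higher in each L2-fKO spleen, with a log2 fold change of 1.29 ± 0.14 and an edgeR adjusted p of 4.11e-04.

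*Sfrp2* went the other way at a far lower level. It had 40.6, 40.4, 34.8 and 45.5 in wild type and 13.6, 17.7, 16.3 and 25.6 in L2-fKO. Each L2-fKO library was below each wild-type library, with a log2 fold change of -1.12 ± 0.26 and an edgeR adjusted p of 0.0191. This call was lost in the leave-one-out fits that dropped wild-type spleen 2, wild-type spleen 4, L2-fKO spleen 1 and L2-fKO spleen 2, in which the adjusted p was 0.0513, 0.0647, 0.0669 and 0.0593, and in the male libraries alone, in which it was 0.0583.

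Of the 9 Frizzled receptors tested, 3 had an adjusted p below 0.05 and all 3 were higher. *Fzd5* had 623.4, 600.0, 708.6 and 723.6 in wild type and 1896, 1721, 2722 and 1216 in L2-fKO. The L2-fKO libraries were widely spread but all above wild type, with L2-fKO spleen 3 highest and 4 lowest, and the log2 fold change was 1.51 ± 0.22 with an edgeR adjusted p of 0.0022. *Fzd4*, whose protein also serves as the receptor for Norrin in endothelium, had 695, 590.9, 604.3 and 597.3 in wild type and 1150.4, 1274, 1233 and 1453 in L2-fKO. The groups did not overlap, wild-type spleen 1 lay above the other wild-type libraries, and the log2 fold change was 1.04 ± 0.11 with an edgeR adjusted p of 5.14e-04. When L2-fKO spleen 4 was dropped, *Fzd4* had a log2 fold change of 0.97, which is within the fold limit, with an adjusted p of 6.41e-04.

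*Fzd1*, the receptor with the highest level, had 2545, 2837, 2870.4 and 2534 in wild type and 4238, 4454, 3965 and 5299 in L2-fKO. The groups were clearly apart, but the log2 fold change of 0.74 ± 0.11 lay within the fold limit (edgeR adjusted p of 0.00304). *Fzd7* had 544.1, 530.3, 593.4 and 554.9 in wild type and 406.1, 406.5, 443.2 and 529.5 in L2-fKO. These groups did not overlap by a narrow margin, and the difference did not pass, with a log2 fold change of -0.32 ± 0.13 and an edgeR adjusted p of 0.134. The other 5 tested receptors (*Fzd2*, *Fzd3*, *Fzd6*, *Fzd8* and *Fzd9*) had overlapping groups and log2 fold changes from -0.34 to 0.26.

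Both co-receptors were higher, and both stayed within the fold limit. *Lrp6* had 2418, 1907, 2307 and 1831 in wild type and 3273, 3525, 4044 and 3547 in L2-fKO, a log2 fold change of 0.77 ± 0.12 with an edgeR adjusted p of 0.00367. *Lrp5* had 1824, 1974, 2072 and 1606 in wild type and 2541, 2605, 2342 and 4048 in L2-fKO. L2-fKO spleen 4 stood apart for *Lrp5*, and the log2 fold change was 0.63 ± 0.18 with an edgeR adjusted p of 0.0444. Leaving out 1 library at a time, the adjusted p of *Lrp5* went from 0.0306 to 0.13, and it was above 0.05 in 5 of the 8 fits. With sex as a covariate it was 0.0831.

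Of the R-spondins, *Rspo3* had 64.1, 61.6, 77.5 and 66.7 in wild type and 106.5, 118.5, 113 and 162.9 in L2-fKO. All L2-fKO spleens were higher, with a log2 fold change of 0.89 ± 0.20 and an edgeR adjusted p of 0.0179. This was 0.0597 without wild-type spleen 2 and 0.0598 without wild-type spleen 4. *Rspo1*, the R-spondin with the highest level, had 137.7, 104, 199.8 and 168.8 in wild type and 112.7, 140.7, 82.6 and 175.7 in L2-fKO. Its groups overlapped (log2 fold change -0.25 ± 0.28, edgeR adjusted p of 0.585). *Rspo2* had at most 1 read in any spleen and was not tested.

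Of the 11 ligands tested, *Wnt4* alone had an adjusted p below 0.05 by edgeR. It had 26.4, 9.09, 15.9 and 29.3 in wild type and 67.9, 41, 142.3 and 52.9 in L2-fKO. The groups did not overlap, the counts were low, and L2-fKO spleen 3, the female, was highest. The log2 fold change was 1.90 ± 0.47 with an edgeR adjusted p of 0.0266. The call was lost in the fits that dropped wild-type spleen 2, wild-type spleen 3, L2-fKO spleen 1 and L2-fKO spleen 3, in which the adjusted p was 0.0726, 0.0518, 0.0593 and 0.0509. In males alone it was 0.0857 with a log2 fold change of 1.48.

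*Wnt5a*, a ligand known mainly for β-catenin-independent signalling and the ligand with the highest level, had 571.5, 613.2, 617.2 and 544.8 in wild type and 735.9, 692.3, 678.9 and 754.6 in L2-fKO. Its groups did not overlap, and the log2 fold change was 0.29 ± 0.11 with an edgeR adjusted p of 0.104. DESeq2 gave *Wnt5a* the same log2 fold change, within the fold limit, with an adjusted p of 0.03. The other ligands that passed the filter (*Wnt2*, *Wnt2b*, *Wnt5b*, *Wnt6*, *Wnt7a*, *Wnt9a* and *Wnt11*) had overlapping groups, with log2 fold changes from -1.03 to 0.12. *Wnt2* was the lowest of these, with 12.1 to 32.1 in wild type and 3.41 to 17.4 in L2-fKO (edgeR adjusted p of 0.195). *Porcn*, which acylates Wnt ligands, had 47.2 to 57.6 in wild type and 57.4 to 68.2 in L2-fKO, a log2 fold change of 0.20 ± 0.19.

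*Wnt10a* and *Wnt10b* were lower on average in L2-fKO, as were pancreatic acinar markers. *Wnt10a* had 82, 26.3, 4.97 and 31.3 in wild type and 15.7, 7.75, 2.17 and 11.9 in L2-fKO. *Wnt10b* had 47.2, 26.3, 10.9 and 31.3 in wild type and 15.7, 13.3, 11.9 and 13.6 in L2-fKO. Wild-type spleen 3 had the lowest acinar sum of the wild-type spleens (1639). It also had their lowest B cell, T cell, megakaryocyte, endothelial and erythroid sums, whereas its mesothelial sum was their highest (3137). Its B cell sum was 12462, against 25475 to 64265 in the other wild-type spleens. It was within or below the L2-fKO range for both *Wnt10a* and *Wnt10b*. Neither passed, with edgeR adjusted p of 0.117 for *Wnt10a* (log2 fold change -1.92 ± 0.74) and 0.106 for *Wnt10b* (-1.08 ± 0.40). With wild-type spleen 3 as the only wild-type library, the log2 fold changes were 0.92 and 0.32. That fit was chosen after seeing the data, and the counts of this 1 library already set its outcome. The part of acinar tissue or of other cells in these values was not tested.

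Dkk genes showed no change that passed. *Dkk3*, the one with the highest level, had 332.9, 194, 314.1 and 249.6 in wild type and 250.5, 209.4, 264 and 327.4 in L2-fKO, and the groups overlapped (edgeR adjusted p of 0.899). *Dkk2* had 25.8 to 73.7 in wild type and 46.7 to 83.6 in L2-fKO, a log2 fold change of 0.51 ± 0.32. *Dkk1* had 4 to 9 reads in wild type and 0 to 4 in L2-fKO, under the filter.

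Some stromal and endothelial markers also differed between the genotypes. Of the 9 spleen stroma markers tested, 3 were called higher and none lower. These were *Pdgfra* (log2 fold change 1.59), *Pdgfrb* (1.15) and *Lum* (1.90), whereas *Col1a1* (0.34), *Col1a2* (0.26), *Col3a1* (0.18), *Dcn* (-0.09), *Cxcl13* (-0.50) and *Madcam1* (-0.31) did not pass. *Ccl21a* was at 0 in all spleens. The summed level of the list rests mostly on *Col1a1*, *Col1a2* and *Col3a1*. It was 52020 to 60052 in wild type and 63703 to 83987 in L2-fKO, with L2-fKO spleen 4 highest. Within its group this library was also highest for *Sfrp1*, *Frzb*, *Fzd1*, *Fzd4*, *Lrp5*, *Rspo3* and *Sfrp2*, whereas it was lowest for *Fzd5*, and *Lrp6* and *Wnt4* were highest in L2-fKO spleen 3. Among the wild-type spleens, spleen 4 had the highest stroma sum (60052) but the lowest *Frzb* count (579.1). Its *Sfrp1* count (1978) was below those of wild-type spleens 2 and 3, whereas over wild-type spleens 1 to 3 the stroma sum and *Sfrp1* both rose. L2-fKO spleen 4 stood apart in other lists too, with the highest endothelial, mesothelial, T cell and B cell sums of its group and the lowest erythroid sum. The erythroid sums of L2-fKO spleens 1 to 4 were 937221, 868864, 1182711 and 552452, the same order as their *Fzd5* counts. Those of wild-type spleens 1 to 4 were 732350, 685332, 589773 and 758813, which is not the order of their *Fzd5* counts. None of the 6 erythroid markers had an adjusted p below 0.05 by edgeR, and 1 did by DESeq2. By edgeR 1 had an unadjusted p below 0.05, against 29% of all genes tested. Of 7 endothelial markers, *Cdh5* was higher (0.70, adjusted p of 0.0261) and *Vwf*, which megakaryocytes also express, was lower (-1.03). The endothelial sums overlapped, at 22280.1 to 28087 in wild type and 26721 to 40120.0 in L2-fKO. None of the 5 mesothelial markers passed. The part of these cells in the members' values was not tested.

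**Figure D4:**
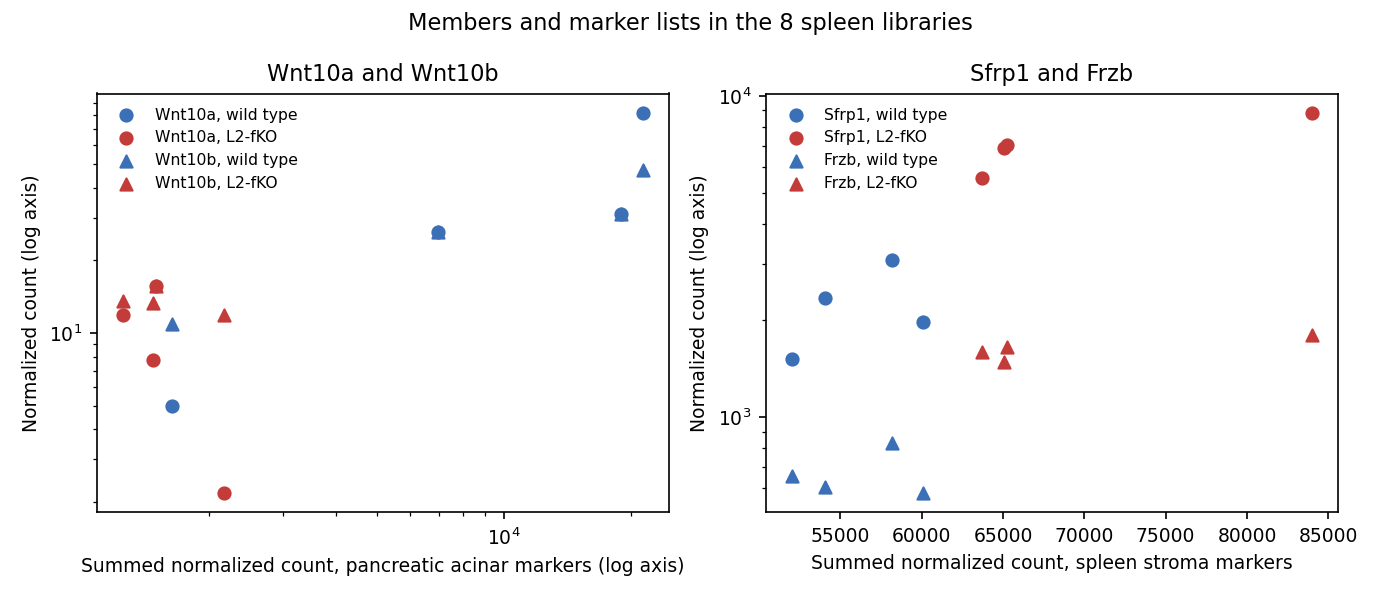
Normalized counts in the 8 spleens (log axis) of *Wnt10a* and *Wnt10b* against the summed pancreatic acinar markers (left, log axis), and of *Sfrp1* and *Frzb* against the summed spleen stroma markers (right). Wild-type spleen 3 lies with the L2-fKO spleens on the left, and on the right the groups separate on both axes. Within wild type *Sfrp1* rises with the stroma sum over spleens 1 to 3 but is lower in spleen 4, which has the highest sum. The *Frzb* counts do not follow the order of the sum.

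Other genes of the pathway were taken from lists by function, in which 81 genes are not members. Of these, 75 were tested in the spleen, 4 were called higher and 1 lower, against 2.9% and 3.11% of all genes. At an adjusted p below 0.05, 11 were higher and 2 lower, against 6.89% and 6.51% of all genes. Their median log2 fold change was 0.11, against -0.02 for all genes tested. Of the receptors and co-receptors outside the module, 4 of 12 were higher. These were *Ror1*, a receptor for WNT5A (162.7 ± 11.4 in wild type and 415.2 ± 66.5 in L2-fKO, SD, n = 4; log2 fold change 1.35), *Ptk7*, a co-receptor of the planar polarity branch (0.80), *Lrp4*, a receptor for sclerostin (0.79) and *Kremen1*, a DKK receptor (0.59). Of 8 genes of ligand release and matrix handling, *Adgra2*, a co-receptor for WNT7 in vessels (1.05), and *Tspan12*, a partner of FZD4 in Norrin signalling (0.72), were higher and *Gpc4*, a glypican, was lower (-1.15).

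For the lists inside the cell and their targets, the counts are again to be read against the 6.89% higher and 6.51% lower of all genes. None of the 13 genes of the destruction complex and transducers, *Ctnnb1*, *Apc* and *Gsk3b* among them, had an adjusted p below 0.05 by edgeR or by DESeq2. Of these 13, 2 had an unadjusted edgeR p below 0.05, against 29% of all genes tested, and their median log2 fold change was 0.16. Among 12 nuclear factors, *Tle1*, a co-repressor, was higher (0.56). Among 12 genes used as targets of the β-catenin branch, *Apcdd1* and *Nkd2*, which both encode inhibitors of the pathway, APCDD1 at the membrane, were higher (1.05 and 0.61), and *Axin2*, *Lef1* and the other 8 did not pass. In the planar polarity list *Prickle2* was higher (1.15), and in the calcium list *Nfatc3* was higher (0.52) and *Nlk* lower (-0.45).

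The second comparison asks the same of the ovary, in which levels of most members were higher per exon length than in the spleen. The tables were normalized separately, so no difference between tissues was tested. *Sfrp1* led in wild-type ovary with 73.7 ± 2.9 RPKM (SD, n = 3). *Wnt6* (33 ± 3.08), *Dkk3* (31.2 ± 1.61) and *Wnt4* (27.3 ± 0.633) followed, and *Wnt6* and *Dkk3* did not differ beyond their spread. *Fzd7* was the Frizzled gene with the highest level at 15.4 ± 1.02, where the spleen had *Fzd1*.

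No member was called in the ovary in either direction, of 34 tested with limma over 18504 genes. Of all genes, 0.73% were called higher and 0.227% lower. None of the members had an adjusted p below 0.05 by limma, and 8 had an unadjusted p below 0.05 (23.5%, against 16.8% of all genes). DESeq2 on the recovered reads called *Wnt10b*, and it gave *Fzd5* an adjusted p below 0.05 within the fold limit. With edgeR on those reads none was called. Every L2-fKO ovary lay above every wild-type ovary for 5 members and below for 2, against 13.2% and 12% of all genes. The median log2 fold change was -0.0098 over the members.

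**Figure D5:**
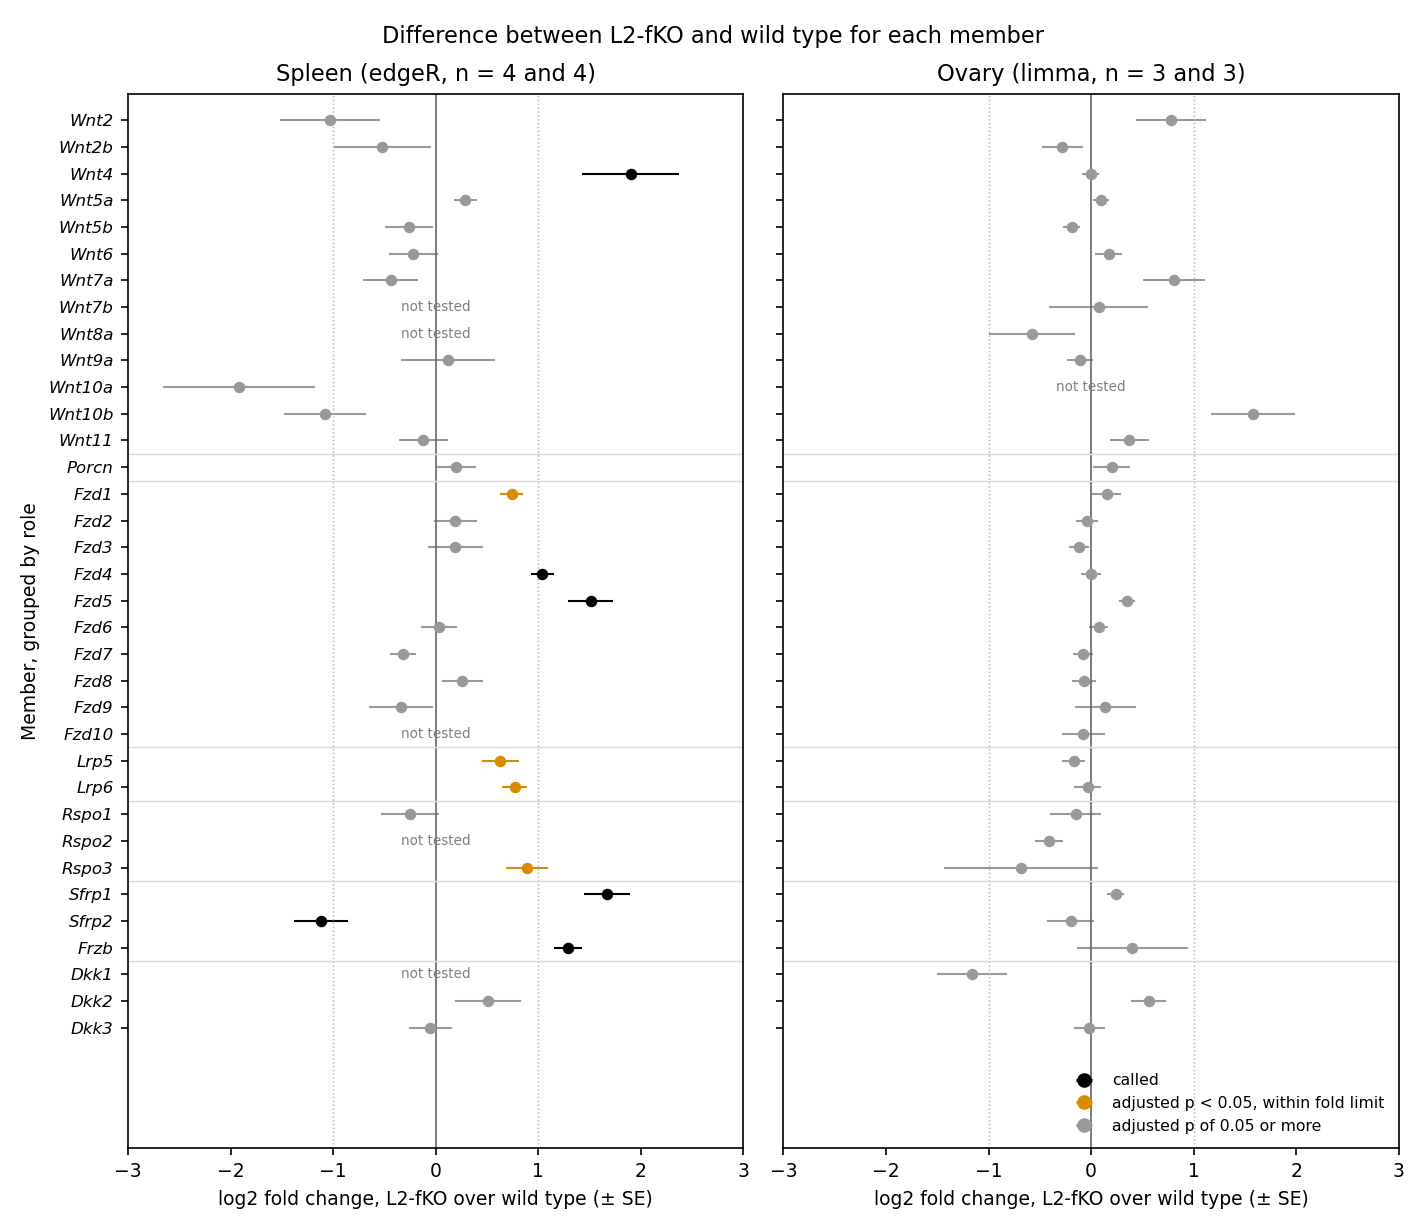
Log2 fold change of L2-fKO over wild type with its SE for each member in the spleen (edgeR) and the ovary (limma on the log2(normalized count + 1) scale), grouped by role. Dotted lines mark the fold limit. Black points are the 6 members called in the spleen, and no point in the ovary is black or orange.

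The members called in the spleen did not pass in the ovary by limma. *Sfrp1* had normalized counts of 11935, 11616 and 12207 in wild type and 15013, 12599.5 and 14777 in L2-fKO. Each L2-fKO ovary was above wild type, but the difference did not pass, with a log2 fold change of 0.24 ± 0.084 and a limma adjusted p of 0.215. *Fzd5* had 739.8, 746.2 and 786.3 in wild type and 966.7, 1014 and 926.9 in L2-fKO, again without overlap. Its log2 fold change was 0.35 ± 0.082 with a limma adjusted p of 0.0901. DESeq2 on the recovered reads gave *Fzd5* a log2 fold change of 0.36, within the fold limit, with an adjusted p of 0.0144. *Fzd4* had 1699.9, 1387 and 1604 in wild type and 1704, 1436 and 1542 in L2-fKO, and *Wnt4* had 4427, 4211 and 4055 and then 3931, 4063 and 4694, so both overlapped. *Frzb* had 86.4, 74.4 and 54.1 in wild type and 161.9, 36 and 138.9 in L2-fKO, with overlap. Its log2 fold change of 0.40 ± 0.54 was imprecise (limma adjusted p of 0.748). *Sfrp2* had 195.9, 193 and 255.1 and then 136.8, 241.5 and 192.4, with overlap (-0.20 ± 0.23, limma adjusted p of 0.707).

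L2-fKO ovary 2 was the lowest ovary for *Frzb*, and it stood apart in markers as well. Its granulosa markers summed to 27890.1, against 62276 to 81411 in the other 5 ovaries, and its surface epithelium markers to 19763, against 8978 to 14324. Without this library *Frzb* had a log2 fold change of 1.08 (limma adjusted p of 0.0824), and *Sfrp1* had 0.32 with a limma adjusted p of 0.044. In the other leave-one-out fits *Frzb* had log2 fold changes of 0.012 to 0.55, and *Sfrp1* had limma adjusted p of 0.273 to 0.497. The library was singled out with these values known. Endothelial sums were 13199 to 14092 in wild type and 16178 to 19880.0 in L2-fKO, with *Cdh5* higher (0.38, limma adjusted p of 0.0423). Of the 8 spleen stroma markers tested in the ovary, 1 had a limma adjusted p below 0.05. This was *Pdgfrb*, higher within the fold limit (0.63, limma adjusted p of 0.0187), whereas *Pdgfra* (0.16) and *Lum* (0.18) did not pass.

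Of the ligands, *Wnt10b* had the largest fold. It had 7.3, 10 and 17.4 in wild type and 25.9, 50.3 and 31.9 in L2-fKO. The groups did not overlap at these low counts of 6 to 49 reads, and the log2 fold change was 1.58 ± 0.41 with a limma adjusted p of 0.12. *Wnt7a* had 49.9, 52.6 and 66.1 in wild type and 102.8, 141.8 and 66 in L2-fKO (0.81 ± 0.30, limma adjusted p of 0.242). L2-fKO ovary 2 was the highest for both, and for *Wnt7a* the lowest L2-fKO library lay within the wild-type range. *Wnt5b* had 1295, 1179.9 and 1265 in wild type and 1144, 1026 and 1105 in L2-fKO (-0.19 ± 0.081, limma adjusted p of 0.293). *Wnt6*, the ligand with the highest level, had 2452, 2737 and 2829.6 in wild type and 2493, 3515 and 3063 in L2-fKO, with overlap.

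Among antagonists and R-spondins in the ovary, *Dkk1* had 19.5, 18.4 and 22 in wild type and 9.84, 10.3 and 5.69 in L2-fKO, with no overlap at 5 to 24 reads (-1.16 ± 0.34, limma adjusted p of 0.157). *Dkk2* had 109.5, 112 and 102.8 in wild type and 135, 181.9 and 166.3 in L2-fKO (0.56 ± 0.17, limma adjusted p of 0.174). The pair thus lay apart between genotypes in opposite directions, both at low levels, and neither passed. *Dkk3*, far higher in level, had 4197, 3766 and 3683 in wild type and 4606, 3051 and 4009.5 in L2-fKO, with overlap. *Rspo2* had 2700.1, 2345 and 2212 in wild type and 2236, 1559.8 and 1710.4 in L2-fKO, with overlap between L2-fKO ovary 1 and wild type (-0.41 ± 0.14, limma adjusted p of 0.214). *Rspo1* had 1031, 1241 and 1227 in wild type and 889.8, 1620.4 and 794.8 in L2-fKO. For *Rspo1*, L2-fKO ovary 2 was the highest of all ovaries and the other L2-fKO ovaries were the lowest.

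The receptors with the highest levels in the ovary did not pass the test. *Fzd7* had 2442, 2600.4 and 2675 in wild type and 2239, 2831 and 2264 in L2-fKO. *Lrp5* had 5818, 5283 and 5108 in wild type and 5292, 4086 and 5141 in L2-fKO, a log2 fold change of -0.17 ± 0.11. *Lrp6* had 5772 to 6786 in wild type and 5266 to 7439 in L2-fKO. A further 12 of the 34 members (*Fzd1*, *Fzd2*, *Fzd3*, *Fzd6*, *Fzd8*, *Fzd9*, *Fzd10*, *Wnt2b*, *Wnt7b*, *Wnt9a*, *Wnt11* and *Porcn*) had overlapping groups and log2 fold changes from -0.28 to 0.37, as had *Wnt5a* (0.098), *Wnt8a* (-0.58) and *Rspo3* (-0.68). *Wnt2* had 22.9 to 28 in wild type and 29.6 to 68.9 in L2-fKO (0.78 ± 0.34, limma adjusted p of 0.305). None of the 79 pathway genes outside the module that were tested in the ovary had an adjusted p below 0.05 by limma. An unadjusted limma p below 0.05 was found for 10 of them, against 16.8% of all genes. DESeq2 on the recovered reads gave 1 gene each in the lists of ligand release, destruction complex and calcium branch an adjusted p below 0.05.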

How the data were processed

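Per the labels and the methods, the authors used Trimmomatic 0.36 for trimming and STAR 2.5.2b for mapping to GRCm38, and counted unique exonic reads by strand with featureCounts (Subread 1.5.2). The deposited spleen values are whole-number counts for 49315 genes. For the ovary the authors deposited normalized signal values, counts divided by 1 size factor per library, for 18603 genes; whole reads were recovered for 100% of them within 0.001 read. The authors' fold changes and p-values were not used.

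Spleen genes that reached 10 counts in 4 or more libraries were tested with edgeR 4.0.16 (quasi-likelihood, TMM). Ovary genes that reached a value of 10 in 3 or more libraries were tested with limma 3.58.1 with an intensity trend on log2(value + 1), and folds on that scale understate the change of low genes. Calls needed an adjusted p (Benjamini-Hochberg) under 0.05 and a log2 fold change beyond 1 in either direction. DESeq2 1.42.0 was an alternative, in R 4.3.3. On simulated counts each pipeline recovered 200 of 200 genes changed by a log2 fold of 2, with 2 to 4 false calls. The changed genes were picked among those with higher counts, and all genes had the same dispersion. The simulation does not speak for smaller folds, lower counts or wider spread between animals.

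Levels per exon length are RPKM computed here from counted reads, library totals and merged GENCODE M21 exon lengths. The 7-mer was searched on the sense strand of the longest 3′UTR, overlapping matches included. Values in every library are given for members called, with an unadjusted p below 0.05 or with the highest level of their role; pathway genes are named where the adjusted p is below 0.05. Members, lists and tests were chosen with earlier results of these data known. Pairs of libraries within a group differed by more than counting error. Each library is 1 animal, and 2 wild-type spleens share the number 3 in their titles, of which the male was named 4.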

Additional observations from a re-analysis of the deposited data

Results flagged for a closer look

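In 2 spleen groups 1 library lay far from the others. *Fzd4* had a normalized count of 695 in wild-type spleen 1, and the gap to the next library was 0.872 of the group's range. *Lrp5* had a normalized count of 4048 in L2-fKO spleen 4, and the gap was 0.846 of the range. The limit was Dixon's 95% critical value for 4 libraries. In all 32 groups were examined, and chance flags about 1 in 20.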

How the results depend on the processing

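With adjusted p as the only limit 9 members were called higher in the spleen, against 5. With wild-type spleen 3, the only wild-type spleen with a low acinar marker sum, as the only wild-type library, an alternative chosen after seeing the data in which that lone library is assumed to vary like the L2-fKO libraries, 0 were called higher and 0 lower; the log2 fold changes of *Sfrp1*, *Frzb*, *Fzd4*, *Fzd5*, *Wnt4* and *Sfrp2* were then 1.20, 0.97, 1.08, 1.41, 2.24 and -0.91, and those of *Wnt10a* and *Wnt10b* changed sign to 0.92 and 0.32. The DESeq2 Wald test called 2 members lower in the spleen (*Sfrp2* and *Wnt10a*), and the male libraries alone called 0 lower. Leaving out 1 spleen at a time gave 4 to 5 members called higher and 0 to 3 called lower; the 3, without wild-type spleen 3, were *Sfrp2*, *Wnt10a* (-2.28) and *Wnt10b* (-1.35). In the ovary DESeq2 on recovered reads called 1 member higher (*Wnt10b*, 1.62), and the other alternatives called 0. Differences close to 0 changed sign: in the spleen *Dkk3* with sex as a covariate (0.055), in males alone (0.25) and over single left-out libraries (-0.18 to 0.059), and *Rspo1* in males alone (0.071); in the ovary *Dkk3* with DESeq2 (0.0032) and over single left-out libraries (-0.15 to 0.15), and *Rspo1* over single left-out libraries (-0.47 to 0.047). The cause of these changes was not tested, other than the fewer samples of the leave-one-out, male and lone wild-type fits. Same-numbered libraries did not deviate together in every spleen pair (correlations of -0.135, 0.0936, 0.179 and -0.293). In the ovary all of these correlations were positive (0.382, 0.211 and 0.0723). The numbers were not taken as pairs in either tissue. Which animals formed the age-matched pairs is not stated. The main fits are therefore unpaired, and these correlations cannot show that no pairs exist. With the replicate block 5 members were called higher and 1 lower in the spleen, *Wnt10a* in place of *Sfrp2*, and 0 in the ovary. In that edgeR fit of the spleen the adjusted p was 0.0511 for *Sfrp2*, 0.064 for *Rspo3* and 0.115 for *Lrp5*. In the ovary the limma adjusted p of *Rspo2* was 0.0603 with the block and 0.214 without it. Depth limits the members under about 20 reads, for which counting error alone is wide.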
